A study of Homo sapiens with 20 samples.

Results

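The 46 genes described here encode the machinery that copies DNA and supplies its building blocks, and they were followed in 5 human multiple myeloma cell models given the vehicle DMSO or indirubin-3'-monoxime (I3MO), a compound of the indirubin family of kinase inhibitors. The members are the rows of the deposited expression matrix whose gene identifier maps to a symbol on a list of licensing, helicase, polymerase, clamp, nucleotide-synthesis and mark-copying genes. All 46 were found among the 60483 listed genes, and all 46 were among the 15687 genes that reached 1 FPKM (fragments scaled by gene length and library total) in at least 2 of the 20 libraries. Myeloma arises from plasma cells, the antibody-secreting cells of the bone marrow. The models were ANBL6, ARP1, RPMI8226 and U266, each with the genotype label wild type, and a form of ANBL6 with the genotype label bortezomib resistant, called ANBL6BR here. The source of every library is given as bone marrow and its cell line is named. I3MO was given at 5 µM to ANBL6 and ANBL6BR and at 10 µM to ARP1, RPMI8226 and U266, so that dose and model cannot be told apart between these sets. Each of the 10 groups held 2 libraries of total RNA. The length of treatment, how the resistant form was made and whether replicates were separate cultures are not given in the sources used here, so that p-values measure only the spread between these libraries, which may be technical.

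DNA replication begins with licensing: the origin recognition complex, CDC6 and CDT1 load the MCM2 to MCM7 ring onto DNA, and geminin (GMNN) holds CDT1 back outside G1 phase. In S phase CDC45 and the GINS complex turn the ring into the active helicase, polymerases copy each strand behind it, the PCNA clamp and its RFC loaders keep them on the template, and ribonucleotide reductase, thymidylate synthase and thymidine kinase supply the deoxynucleotides. Most of these genes are transcribed at the passage from G1 into S phase by E2F factors, and their messages are abundant in dividing cells and scarce in resting ones. In bulk RNA, fewer cells in S phase and less of these messages per cell cannot be told apart.

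Promoter sequence from RefSeq (GRCh38.p14) was searched on both strands for 5 E2F site forms: TTTCCCGC, or TTTGGCGC, or TTTCGCGC, or TTTGCCGC, or TTTGCGCG. The CCAAT box, named for the letters CCAAT, and the cell-cycle homology region, with the letters TTTGAA, were searched too. A window ran from 250 bases before a gene's start to 50 bases after it, and 40 of the 46 members had one that was used. An E2F form was present in 23 of the 40 (57.5%), against 4.48% of 27305 genes with a window and 6.11% of the 15842 protein-coding ones. Counted by window, it was in 24 of the members' 52 windows (46.2%), against 3.72% of all 35116. TTTCCCGC was in 11 members, TTTGGCGC and TTTCGCGC in 7 each, and TTTGCGCG in 3. TTTGCCGC was in 0 of 40. The CCAAT box was in 25 of the 40 (62.5%), against 39.7% of genes with a window. The TTTGAA form was in 1 (2.5%), against 18.2%. These matches are a description of the letters and not of sites in use. The members shown are the 6 holding a motif that had the smallest p for I3MO across the models, with POLD1 as the first without one. Where a member had several windows, the one shown was picked first for holding an E2F form and then for the most motif matches. Each runs from 200 bases before the start to 20 after it, 5′ to 3′ on the gene's strand, with motif matches in capitals.
MCM2, chr3:127598211-127598430, plus strand: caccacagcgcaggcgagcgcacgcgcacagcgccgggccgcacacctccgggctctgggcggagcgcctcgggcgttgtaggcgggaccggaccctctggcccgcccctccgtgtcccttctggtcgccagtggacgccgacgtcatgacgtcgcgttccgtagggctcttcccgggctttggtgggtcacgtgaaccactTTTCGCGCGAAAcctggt
DNMT1, chr19:10194934-10195153, minus strand: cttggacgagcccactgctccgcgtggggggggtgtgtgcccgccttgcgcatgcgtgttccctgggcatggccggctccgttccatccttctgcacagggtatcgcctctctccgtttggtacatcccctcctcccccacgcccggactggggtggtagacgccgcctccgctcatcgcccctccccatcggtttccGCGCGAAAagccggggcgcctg
MCM7, chr7:100101378-100101597, minus strand: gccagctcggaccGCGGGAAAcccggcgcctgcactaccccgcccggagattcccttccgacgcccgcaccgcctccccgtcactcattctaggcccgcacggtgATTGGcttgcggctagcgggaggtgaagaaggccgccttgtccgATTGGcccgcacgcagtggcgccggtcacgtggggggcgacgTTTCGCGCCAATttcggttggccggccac
TK1, chr17:78187033-78187252, minus strand: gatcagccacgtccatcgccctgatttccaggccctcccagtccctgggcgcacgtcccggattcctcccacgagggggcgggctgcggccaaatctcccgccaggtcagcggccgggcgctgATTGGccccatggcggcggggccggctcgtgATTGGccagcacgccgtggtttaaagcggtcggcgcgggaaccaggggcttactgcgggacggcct
MCM3, chr6:52284723-52284942, minus strand: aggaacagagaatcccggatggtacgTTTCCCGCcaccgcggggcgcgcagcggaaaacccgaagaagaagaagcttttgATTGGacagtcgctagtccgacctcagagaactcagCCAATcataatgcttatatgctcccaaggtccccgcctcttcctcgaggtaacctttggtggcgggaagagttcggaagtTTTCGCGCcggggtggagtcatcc
UHRF1, chr19:4909944-4910163, plus strand: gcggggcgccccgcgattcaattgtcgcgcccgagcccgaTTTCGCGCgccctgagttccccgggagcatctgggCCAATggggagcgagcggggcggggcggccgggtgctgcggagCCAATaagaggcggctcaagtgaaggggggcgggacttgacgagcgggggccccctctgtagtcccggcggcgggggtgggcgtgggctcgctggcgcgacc
POLD1, chr19:50384123-50384342, plus strand: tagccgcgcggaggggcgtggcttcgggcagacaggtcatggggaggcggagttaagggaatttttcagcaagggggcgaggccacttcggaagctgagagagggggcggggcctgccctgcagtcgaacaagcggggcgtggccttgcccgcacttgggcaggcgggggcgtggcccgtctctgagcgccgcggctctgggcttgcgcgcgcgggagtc
In MCM2 the TTTCGCGC form matched on both strands, at overlapping positions just after the start. MCM7 and MCM3 each held that form just before the start and TTTCCCGC farther away, and in MCM7 the former overlapped a CCAAT box. DNMT1 held TTTCGCGC at its start and UHRF1 held it 160 bases before. TK1 had only CCAAT boxes among the forms searched, both on the opposite strand. Of 40 member promoters checked, 34 had their first transcribed bases in a GENCODE 29 transcript of the same gene.

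The libraries held 12.11 M to 20.31 M fragments, and the members' own fragments ran from 36 for POLE2 in a U266 I3MO library to 32110 for RRM2 in an ARP1 DMSO library. Of 11 plasma cell markers 9 or 10 reached 1 FPKM in each model, with a summed level of 218 to 632 FPKM, while XBP1 was listed at 0 in every library. That sum was lower with I3MO, without overlap, in U266 (506 and 507 FPKM in DMSO, 218 and 231 with I3MO), in RPMI8226 (579 and 584 against 422 and 431) and in ARP1 (548 and 632 against 473 and 476). In the ANBL6BR DMSO libraries it was 237 and 621 FPKM. Summed markers of T cells, erythroid cells and stromal cells stayed at or below 6.17 FPKM. The myeloid sum in RPMI8226 was 51.4 and 53.9 FPKM in DMSO and 32.7 and 32.9 with I3MO, and at most 4.5 in the other models. The epithelial sum was 29 to 32.3 FPKM in ANBL6 and 22.8 to 25.3 in RPMI8226. The part of these markers in the results was not tested. Exon bases shared with another gene make up 46.6% in TYMS, 23.6% in GINS4, 10.9% in GINS3, 10.6% in RFC5 and 5.2% to 8.9% in MCM7, FEN1, POLD1, PRIM1 and CLSPN, and reads there cannot be told apart. The pair of ANBL6BR DMSO libraries stood apart over the members (chi-square per degree of freedom 195.39), followed by ARP1 DMSO (43.51) and U266 I3MO (23.87), against 4.76 to 8.83 in the other groups. ANBL6 with I3MO had 32668 and 28419 genes above 0, against 22138 and 22710 in DMSO.

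I3MO lowered most replication genes in U266 and in ANBL6BR, many of them in ARP1, fewer in RPMI8226 and few in ANBL6. Counts are of members called by limma at an adjusted p under 0.05, on log2(FPKM + 1), with the spread pooled over the 10 groups. On this scale the change of a gene at low FPKM is understated. In U266 43 of 46 fell and 0 rose, with a median difference of -1.01, where 26.2% of all genes tested were called, 15.8% lower and 10.5% higher. In ANBL6BR 38 fell and 0 rose (median -0.76), against 18.4% of all genes called, 8.4% lower and 10% higher. In ARP1 27 fell and 5 rose (median -0.37), against 37% of all genes, 13.9% lower and 23.1% higher. In RPMI8226 11 fell and 0 rose (median -0.2), against 14.8%, with 8.62% lower and 6.19% higher. In ANBL6 4 fell and 1 rose (median -0.11), against 7.97%, with 3.87% lower and 4.1% higher, so that the rising share was near the background. The median over all genes lay between -0.02 and 0.03 in the 5 comparisons.

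**Figure D1:**
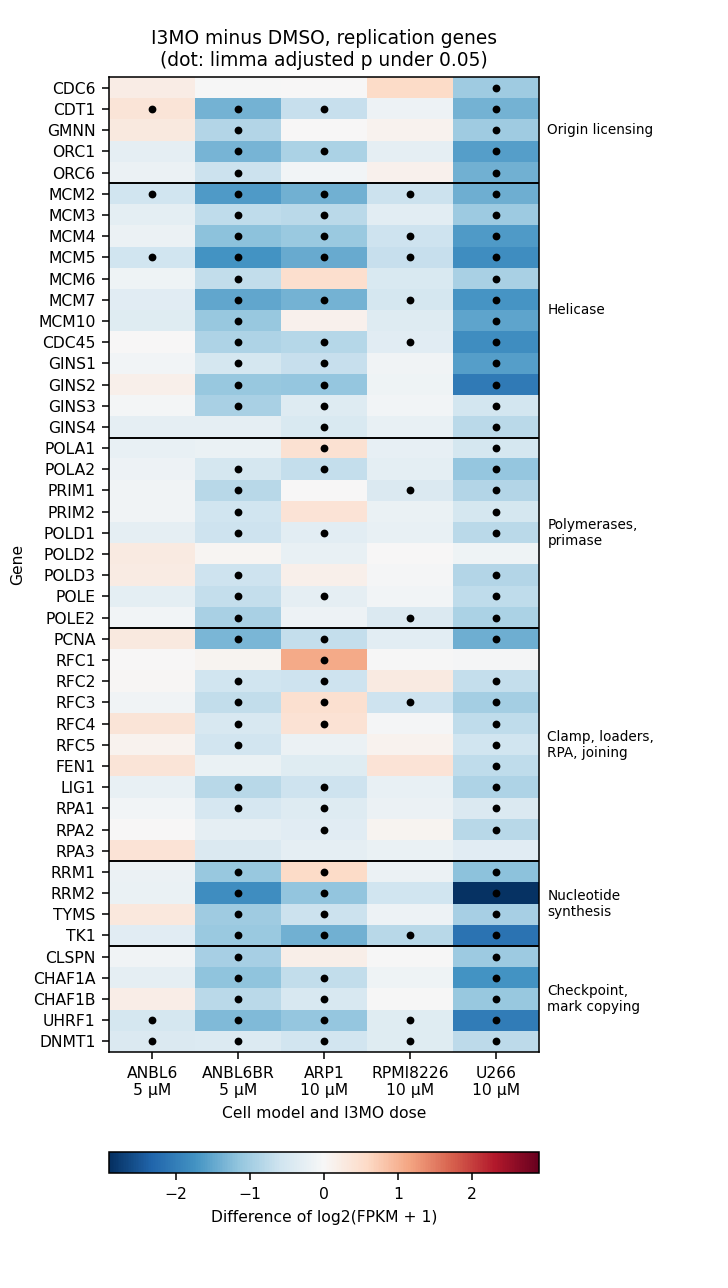
I3MO minus DMSO for each of the 46 genes (rows, grouped by role) in each model (columns), as a difference of log2(FPKM + 1); dots mark limma adjusted p under 0.05. The U266 column is blue in 43 dotted cells and the ARP1 column has 5 dotted red cells.

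These counts rest unequally on single libraries. With only the ANBL6BR libraries in the fit, 0 members and 0 genes of any kind were called, so that the 38 rest on the spread pooled over all groups. Leaving out ARP1 DMSO replicate 1 left 21 calls in ARP1, and leaving out RPMI8226 DMSO replicate 2 left 3 in RPMI8226. In ANBL6 2 calls were left without I3MO replicate 2. Both I3MO libraries lay below both DMSO libraries for 45 members in U266 (31.7% of all genes did), 42 in ANBL6BR (24.2%), 31 in ARP1 (25.5%), 29 in RPMI8226 (33.4%) and 24 in ANBL6 (25%). Both lay above for 12 members in ANBL6 (32.5%), 7 in ARP1 (38.8%), 6 in RPMI8226 (25.5%), 1 in ANBL6BR (26.5%) and 0 in U266 (23.1%).

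Of the 46 genes 28 were called lower in at least 3 of the 5 models, as were 4.73% of all genes tested, and 8 in at least 4 models (1.41% of all genes). MCM2, MCM5, UHRF1 and DNMT1 were lower in all 5 (0.325%). MCM2 and MCM5 alone kept that call in all 5 models in every fit that left out 1 library. RFC1, RPA3 and POLD2, a loader subunit, the smallest subunit of the single-strand binding protein RPA and a subunit of polymerase delta, were called lower in no model. The difference was below 0 in all 5 models for 20 members (7.76% of all genes), and 6 members were called higher in at least 1 model (38.2%).

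The share of a library's fragments that fell on the 46 genes was lower with I3MO in each model. In U266 it was 0.8% and 0.812% in DMSO and 0.325% and 0.346% with I3MO. ANBL6BR had 0.956% and 1.06% in DMSO and 0.471% and 0.532% with I3MO. In ARP1 the shares were 0.926% and 0.889% against 0.539% and 0.557%. In these 3 models the I3MO shares lay between 0.325% and 0.557%, against at least 0.8% in DMSO. RPMI8226 had 0.933% and 0.937% against 0.743% and 0.764%. ANBL6 had 0.793% and 0.853% against 0.72% and 0.764%, the closest pair of groups.

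**Figure D2:**
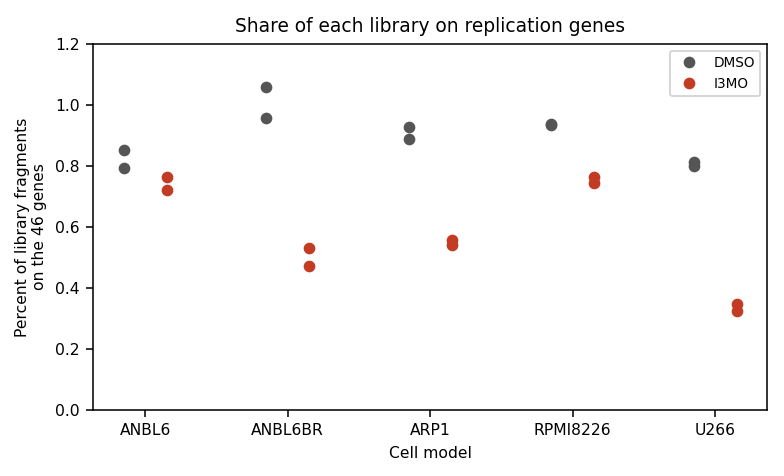
Percent of each library's fragments that fell on the 46 genes (vertical axis, from 0) in the DMSO and I3MO libraries of each model; each point is a library. In every model both I3MO points lie below both DMSO points, nearest in ANBL6 (0.764% against 0.793%).

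Helicase genes were called lower in every model. Of 12 members, 12 fell in U266 (median -1.57), 11 in ANBL6BR (-1.01), 10 in ARP1 (-0.81), 5 in RPMI8226 (-0.35) and 2 in ANBL6 (-0.21), and none rose by the test. The shares of all genes that fell were 15.8%, 8.4%, 13.9%, 8.62% and 3.87%, in that order of models. MCM5 and MCM2 are subunits that form the gate of the hexameric ring, through which DNA enters. In DMSO, MCM5 was at 31 and 34.5 FPKM in ANBL6, 24.6 and 25.1 in ANBL6BR, 21.1 and 20.5 in ARP1, 37.6 and 38.1 in RPMI8226 and 36.6 and 38 in U266. With I3MO it was at 21 and 22 in ANBL6, 6.47 and 7.09 in ANBL6BR, 6.68 and 7.1 in ARP1, 22.6 and 24.8 in RPMI8226 and 10.3 and 9.69 in U266. No I3MO library of any model reached a DMSO library of that model. MCM5 fell by 1.8 in U266 (SE 0.07, limma adjusted p = 9.69e-09), by 1.73 in ANBL6BR (1.16e-07), by 1.47 in ARP1 (1.54e-07), by 0.66 in RPMI8226 (9.14e-05) and by 0.58 in ANBL6 (0.000692). The mean FPKM with I3MO was 26.8%, 27.3%, 33.1%, 62.6% and 65.7% of that in DMSO in these models.

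The DMSO levels of MCM2 were 34.7 and 38.8 FPKM in ANBL6, 18.6 and 18.7 in ANBL6BR, 36.4 and 35.2 in ARP1, 47.4 and 49.2 in RPMI8226 and 39.1 and 41.7 in U266. The I3MO libraries, in the same order of models, gave 23.4 and 25, then 4.95 and 5.59, then 13 and 13, then 30 and 32.3, and last 14.2 and 14.7. These groups were also apart in all 5 models. MCM2 fell by 1.65 in ANBL6BR (SE 0.08, limma adjusted p = 1.81e-07), 1.42 in U266 (8.28e-08), 1.39 in ARP1 (2.43e-07), 0.62 in RPMI8226 (0.00017) and 0.58 in ANBL6 (0.000862). MCM7, another ring subunit, shares some exon bases with AP4M1. MCM7 stood in DMSO at 20.8 and 21.8 FPKM in ANBL6, 43.3 and 41.5 in ANBL6BR, 31.3 and 31.9 in ARP1, 53.4 and 54.1 in RPMI8226 and 22.8 and 23.5 in U266. Under I3MO the values were 15.6 and 18.1 in ANBL6, 12.9 and 15.9 in ANBL6BR, 10.9 and 12.3 in ARP1, 36.7 and 38.9 in RPMI8226 and 6.26 and 6.65 in U266. Its I3MO libraries were below the DMSO libraries in each model. MCM7 fell by 1.7 in U266, 1.5 in ANBL6BR, 1.37 in ARP1 and 0.5 in RPMI8226 (SE 0.1, limma adjusted p = 1.53e-07, 2.76e-06, 1.58e-06 and 0.00401), and in ANBL6 the difference was -0.32 (0.061).

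The measured differences of the 6 ring subunits varied in size. MCM3 differed by -0.29, -0.73, -0.79, -0.31 and -1.06 in ANBL6, ANBL6BR, ARP1, RPMI8226 and U266, and MCM4 by -0.18, -1.19, -1.08, -0.59 and -1.64. MCM6 stood apart: it differed by 0.48 in ARP1 (limma adjusted p = 0.0563) beside falls of 0.71 in ANBL6BR and 0.95 in U266. The ANBL6BR call of MCM6 was lost without DMSO replicate 2 (-0.71) or either I3MO library (-0.62 and -0.81), and the RPMI8226 call of MCM4 without DMSO replicate 2 (-0.56) or either I3MO library (-0.59 and -0.58). MCM6 in ARP1 was at 20.1 and 34 FPKM in DMSO and 37.9 and 35.7 with I3MO, so that the DMSO libraries were farther from each other than the higher one was from the I3MO libraries. The gap between the lowest and highest of the 6 differences was 1.95 in ARP1, against 1.02 in ANBL6BR, 0.85 in U266, 0.46 in ANBL6 and 0.35 in RPMI8226. MCM6 was the least lowered subunit in 4 models, RPMI8226 being the exception, where it was MCM3. Whether the subunits' differences were unequal beyond their error was not tested.

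Of the 6 partners that activate the ring, all fell in U266, and all but GINS4 fell in ANBL6BR. In ANBL6BR MCM10, GINS2, GINS3, CDC45 and GINS1 fell by 1.1, 1.09, 0.94, 0.9 and 0.52, and GINS4 differed by -0.26 (limma adjusted p = 0.161). The GINS1 call there was lost without DMSO replicate 1 (-0.33) or either I3MO library (-0.46 and -0.58). CDC45 also fell by 0.33 in RPMI8226, a call lost without any 1 of its 4 libraries (-0.28 to -0.37). On the log2(FPKM + 1) scale GINS2 fell by 2.04 in U266, the most of the 12, and CDC45 by 1.79 (limma adjusted p = 7.3e-08 and 6.77e-08). In U266 CDC45 was at 5.29 and 5.34 FPKM in DMSO and at 0.905 and 0.757 with I3MO. MCM10, which helps to start the assembled helicase, was at 3 and 3 FPKM in U266 DMSO and at 0.356 and 0.399 with I3MO, a difference of -1.54 (1.15e-05). Those I3MO levels were 15.6% and 12.6% of DMSO for CDC45 and MCM10. By this ratio both fell further than GINS2, whose U266 means were 20.5 FPKM in DMSO and 4.23 with I3MO. In ARP1 MCM10 differed by 0.12 (limma adjusted p = 0.61), while GINS2 and CDC45 fell by 1.12 and 0.83. GINS1, GINS3 and GINS4, the other members of the GINS complex, fell in ARP1 and U266, by 0.66 and 1.6, by 0.37 and 0.53, and by 0.45 and 0.79. Without ARP1 DMSO replicate 1 the ARP1 differences of GINS3 and GINS4 were -0.27 and -0.29 and not called, nor were they without I3MO replicate 1 (-0.29 and -0.44).

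**Figure D3:**
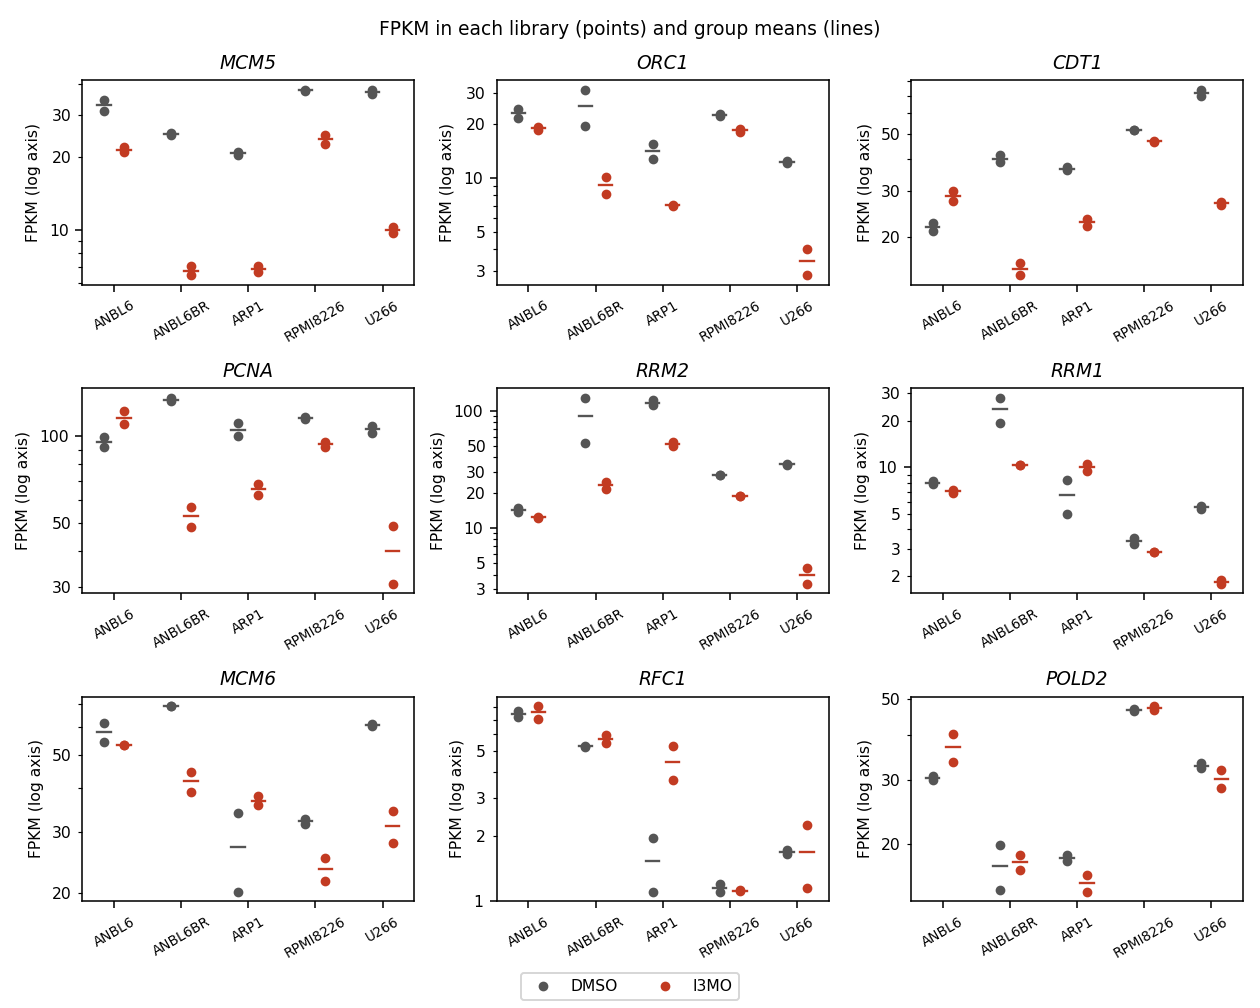
FPKM of 9 members in each library (points, log axis) and group means (lines), DMSO in grey and I3MO in red, by model. MCM5 is lower with I3MO in all 5 models, CDT1 and PCNA are higher with I3MO in ANBL6 and lower elsewhere, RFC1 is higher in ARP1, and the wide grey pairs are RRM2 and ORC1 in ANBL6BR and MCM6, RRM1 and RFC1 in ARP1.

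Of the 5 origin licensing genes all 5 fell in U266 (median -1.38), 4 in ANBL6BR (-0.85), 2 in ARP1 (-0.07) and 0 in RPMI8226 (0.11). In ANBL6 0 fell and 1 rose (0.22). Beside these counts, 15.8%, 8.4%, 13.9%, 8.62% and 3.87% of all genes fell in the same order of models. In ANBL6 4.1% of all genes rose. ORC1 is the largest subunit of the origin recognition complex. For ORC1 the DMSO libraries gave 21.8 and 24.5 FPKM in ANBL6, 19.5 and 31.3 in ANBL6BR, 15.6 and 12.8 in ARP1, 22.7 and 22.2 in RPMI8226 and 12.2 and 12.5 in U266. I3MO libraries of the same models, in that order, held 19.4 and 18.7, then 8.11 and 10.2, then 7.02 and 7.08, then 18.2 and 18.9, and last 2.85 and 4.03. ORC1 was below DMSO with I3MO in both libraries of every model, and the ANBL6BR DMSO pair differed widely. It fell by 1.6 in U266, 1.35 in ANBL6BR and 0.91 in ARP1 (SE 0.18, limma adjusted p = 4.27e-05, 0.000387 and 0.00208), and the differences in ANBL6 and RPMI8226 were -0.27 (0.444) and -0.26 (0.436).

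CDT1, the loading factor that is destroyed as S phase begins, went in opposite directions in ANBL6 and its resistant form. In DMSO, CDT1 was at 21 and 22.7 FPKM in ANBL6, 41.4 and 38.8 in ANBL6BR, 37.2 and 36.2 in ARP1, 51.6 and 51.9 in RPMI8226 and 70.1 and 74.1 in U266. With I3MO it was at 27.4 and 30.2 in ANBL6, 14.2 and 15.9 in ANBL6BR, 22.1 and 23.4 in ARP1, 46.8 and 46.6 in RPMI8226 and 27.3 and 26.6 in U266. The libraries did not overlap in any model, with I3MO above DMSO in ANBL6 and below it in the other 4. CDT1 rose by 0.38 in ANBL6 (SE 0.07, limma adjusted p = 0.00906) and fell by 1.36 in ANBL6BR (8.76e-07), 1.38 in U266 (8.77e-08) and 0.67 in ARP1 (3.96e-05). The rise in ANBL6 did not pass without DMSO replicate 1 (0.33) or without I3MO replicate 2 (0.32). In RPMI8226 the difference was -0.15 (0.245).

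ORC6, the smallest subunit of the origin recognition complex, was more variable. The DMSO levels of ORC6 were 5.29 and 5.83 FPKM in ANBL6, 3.32 and 6.31 in ANBL6BR, 9.71 and 8.51 in ARP1, 4.34 and 4.5 in RPMI8226 and 4.41 and 3.99 in U266. The I3MO libraries, in the same order of models, gave 4.5 and 5.29, then 2.39 and 2.94, then 8.2 and 8.99, then 4.9 and 4.93, and last 0.87 and 1.09. The groups overlapped in ARP1 and touched in ANBL6, and the ANBL6BR DMSO libraries were far apart. ORC6 fell by 1.4 in U266 and 0.62 in ANBL6BR (SE 0.18, limma adjusted p = 0.000116 and 0.0325). The ANBL6BR call was lost without DMSO replicate 2, where the difference was -0.24, or without either I3MO library (-0.51 and -0.73). Without DMSO replicate 1 it was -1. GMNN, which encodes the CDT1 inhibitor geminin, fell by 0.85 in ANBL6BR and 1.03 in U266 and differed by 0.29, 0.01 and 0.11 in ANBL6, ARP1 and RPMI8226. CDC6, the loading ATPase, fell by 1.04 in U266 and passed in no other model, and in RPMI8226 both I3MO libraries (27.9 and 29.9 FPKM) lay above both DMSO libraries (19.9 and 19), a difference of 0.55 (limma adjusted p = 0.0562).

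The polymerase and primase genes had medians nearer 0 than the helicase genes in each model, a gap that was not tested. Of 9 members 8 fell in U266 (median -0.78), 7 in ANBL6BR (-0.6), 3 in ARP1 (-0.14) and 2 in RPMI8226 (-0.21), 1 rose in ARP1, and 0 passed in ANBL6 (-0.1). Falls among all genes were 15.8%, 8.4%, 13.9% and 8.62% in U266, ANBL6BR, ARP1 and RPMI8226. Rises in ARP1 were 23.1% of all genes, above the share of these members. POLD1 is the catalytic subunit of polymerase delta, which copies the lagging strand. POLD1 stood in DMSO at 9.56 and 10.3 FPKM in ANBL6, 6.54 and 6.09 in ANBL6BR, 6.75 and 7.02 in ARP1, 12.9 and 11.7 in RPMI8226 and 8.28 and 8.78 in U266. Under I3MO the values were 8.51 and 7.88 in ANBL6, 3.58 and 4.08 in ANBL6BR, 5.12 and 5.63 in ARP1, 10.4 and 10.6 in RPMI8226 and 4.77 and 4.32 in U266. I3MO libraries lay below DMSO libraries in every model. POLD1 fell by 0.78 in U266, 0.6 in ANBL6BR and 0.31 in ARP1 (SE 0.08, limma adjusted p = 1.7e-05, 0.000353 and 0.00944), and the ARP1 call was lost without I3MO replicate 1 (-0.25).

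POLA2 is the accessory subunit of polymerase alpha, which with primase lays down the first stretch of each new strand. For POLA2 the DMSO libraries gave 8.08 and 8.42 FPKM in ANBL6, 8.99 and 10.8 in ANBL6BR, 7.55 and 6.49 in ARP1, 11.8 and 13.2 in RPMI8226 and 5.55 and 5.84 in U266. I3MO libraries of the same models, in that order, held 7.38 and 7.42, then 6.39 and 6.84, then 3.86 and 4.05, then 9.71 and 10.6, and last 2.28 and 1.88. Again no I3MO library reached the DMSO libraries of its model. POLA2 fell by 1.12 in U266, 0.69 in ARP1 and 0.52 in ANBL6BR (SE 0.1, limma adjusted p = 5.13e-06, 0.000224 and 0.00346). POLE is the catalytic subunit of polymerase epsilon on the leading strand. In DMSO, POLE was at 1.99 and 2.26 FPKM in ANBL6, 5.33 and 5.87 in ANBL6BR, 2.77 and 2.35 in ARP1, 1.64 and 1.84 in RPMI8226 and 3.28 and 3.44 in U266. With I3MO it was at 1.72 and 1.45 in ANBL6, 2.92 and 3.28 in ANBL6BR, 2.11 and 1.86 in ARP1, 1.52 and 1.61 in RPMI8226 and 1.66 and 1.57 in U266. The groups were apart in all 5 models, by little in RPMI8226. POLE fell by 0.74 in U266, 0.69 in ANBL6BR and 0.25 in ARP1 (SE 0.09, limma adjusted p = 5.89e-05, 0.000267 and 0.0402), and without ARP1 DMSO replicate 1 the ARP1 difference was -0.17 and not called; it was also lost without either I3MO library (-0.31 and -0.19).

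Primase subunit PRIM1 fell by 0.81 in ANBL6BR, 0.85 in U266 and 0.42 in RPMI8226, and its partner PRIM2 by 0.58 in ANBL6BR and 0.51 in U266. In ARP1 they differed by 0.02 and 0.4 (limma adjusted p = 1 and 0.078). POLE2 fell by 0.94, 0.91 and 0.42 in ANBL6BR, U266 and RPMI8226, and POLD3 by 0.6 and 0.84 in ANBL6BR and U266. The RPMI8226 call of PRIM1 was lost without DMSO replicate 2 (-0.28), I3MO replicate 1 (-0.51) or I3MO replicate 2 (-0.34), and that of POLE2 without any 1 of the 4 libraries (-0.34 to -0.5). The PRIM2 calls were lost without any 1 of the U266 libraries (-0.44 to -0.58) and, in ANBL6BR, without DMSO replicate 2 (-0.5) or either I3MO library (-0.61 and -0.55). POLD2 differed by 0.26, 0.05, -0.22, 0.02 and -0.12 in ANBL6, ANBL6BR, ARP1, RPMI8226 and U266, and no test passed. The POLD2 level in U266 was 32.4 and 33.4 FPKM in DMSO and 31.9 and 28.6 with I3MO.

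Among the clamp, loader, RPA and Okazaki-joining genes 9 of 11 fell in U266 (median -0.74), 7 in ANBL6BR (-0.48), 5 in ARP1 (-0.32) and 1 in RPMI8226 (-0.03), 3 rose in ARP1, and 0 passed in ANBL6 (0.04). All genes fell at 15.8%, 8.4%, 13.9% and 8.62% in U266, ANBL6BR, ARP1 and RPMI8226, and 23.1% rose in ARP1. The fall in RPMI8226 and the rises in ARP1 were thus near the background. LIG1 is the ligase that seals Okazaki fragments. The DMSO levels of LIG1 were 3.38 and 3.55 FPKM in ANBL6, 3.51 and 3.64 in ANBL6BR, 2.05 and 1.93 in ARP1, 2.55 and 2.57 in RPMI8226 and 2.69 and 2.67 in U266. The I3MO libraries, in the same order of models, gave 2.82 and 2.92, then 1.48 and 1.74, then 0.984 and 0.955, then 1.96 and 2.2, and last 1.04 and 0.911. The groups did not overlap in any model. LIG1 fell by 0.9 in U266, 0.81 in ANBL6BR and 0.6 in ARP1 (SE 0.07, limma adjusted p = 1.49e-06, 1.62e-05 and 4.24e-05), and in RPMI8226 and ANBL6 the differences were both -0.21 (0.0583 and 0.0861).

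PCNA, the sliding clamp, had differences of opposite sign in ANBL6 and ANBL6BR. PCNA stood in DMSO at 92 and 99.2 FPKM in ANBL6, 136 and 132 in ANBL6BR, 100 and 111 in ARP1, 117 and 115 in RPMI8226 and 109 and 103 in U266. Under I3MO the values were 110 and 122 in ANBL6, 48.7 and 57 in ANBL6BR, 62.8 and 68.6 in ARP1, 95.6 and 91.9 in RPMI8226 and 30.9 and 49 in U266. I3MO libraries lay above DMSO in ANBL6 and below it in the 4 other models. PCNA fell by 1.33 in ANBL6BR, 1.42 in U266 and 0.68 in ARP1 (SE 0.16, limma adjusted p = 0.000172, 3.52e-05 and 0.00538). In ANBL6 the difference was 0.28 (0.339) and in RPMI8226 -0.31 (0.261). RPA1 is the largest subunit of the protein that coats single-stranded DNA. For RPA1 the DMSO libraries gave 21.4 and 22 FPKM in ANBL6, 22.8 and 19.2 in ANBL6BR, 31 and 29.6 in ARP1, 10.3 and 11.2 in RPMI8226 and 8.26 and 7.65 in U266. I3MO libraries of the same models, in that order, held 19.6 and 21.1, then 14.8 and 14.6, then 22.4 and 24.1, then 9.13 and 9.81, and last 4.84 and 6.53. The groups were apart in all 5 models by small margins. RPA1 fell by 0.48 in ANBL6BR, 0.43 in U266 and 0.37 in ARP1 (SE 0.11, limma adjusted p = 0.00989, 0.0119 and 0.0208). None of these 3 calls held without DMSO replicate 1 of its model (-0.36, -0.38 and -0.33); without U266 I3MO replicate 1 the U266 difference was -0.25, and the calls were also lost without ANBL6BR I3MO replicate 2 (-0.47) and ARP1 I3MO replicate 1 (-0.32).

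FEN1, the flap nuclease that trims Okazaki fragments, fell in U266 by 0.74 (limma adjusted p = 0.0079) and differed by 0.37 in ANBL6 and 0.39 in RPMI8226 (0.239 and 0.181). In RPMI8226 FEN1 was at 113 and 107 FPKM in DMSO and at 145 and 143 with I3MO, which did not overlap. Its U266 call was lost without DMSO replicate 1 (-0.68) or I3MO replicate 1 (-0.52). RFC2, a small loader subunit, fell by 0.58, 0.61 and 0.69 in ANBL6BR, ARP1 and U266. RFC5, another, fell by 0.56 and 0.57 in ANBL6BR and U266, and in ANBL6BR its difference was -0.47 and not called without I3MO replicate 1, and -0.37 and called without DMSO replicate 2 (limma adjusted p = 0.0493). RPA2 fell by 0.32 in ARP1 and 0.8 in U266, and RPA3 differed by -0.42 in ANBL6BR (limma adjusted p = 0.0516) and 0.39 in ANBL6 (0.105). The RPA2 call in ARP1 was lost without any 1 of its 4 libraries (-0.25 to -0.4).

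The 4 nucleotide-synthesis genes gave the lowest class median in U266 (-1.66), where all 4 fell, as they did in ANBL6BR (-1.08). In ARP1 3 fell and 1 rose (-0.89), in RPMI8226 1 fell (-0.37), and in ANBL6 0 passed (-0.18). For all genes the falls were 15.8%, 8.4%, 13.9% and 8.62% in U266, ANBL6BR, ARP1 and RPMI8226. The 1 rise in ARP1 was near the 23.1% of all genes that rose there. TK1 is the S-phase thymidine kinase of the salvage pathway. In DMSO, TK1 was at 73.4 and 78.3 FPKM in ANBL6, 25.7 and 15.9 in ANBL6BR, 38.3 and 40.7 in ARP1, 116 and 109 in RPMI8226 and 28.6 and 30.1 in U266. With I3MO it was at 55.5 and 64.7 in ANBL6, 7.97 and 10.4 in ANBL6BR, 13.5 and 15.5 in ARP1, 64.9 and 63.5 in RPMI8226 and 6.88 and 5.1 in U266. The groups were apart in every model, with the ANBL6BR DMSO libraries unlike each other. TK1 fell by 2.13 in U266, 1.39 in ARP1, 1.07 in ANBL6BR and 0.8 in RPMI8226 (SE 0.19, limma adjusted p = 5.31e-06, 0.000159, 0.00202 and 0.0124), and in ANBL6 the difference was -0.33 (0.329). The RPMI8226 call was lost without any 1 of its 4 libraries (-0.75 to -0.85).

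RRM2 is the small, cell-cycle-regulated subunit of ribonucleotide reductase, which makes deoxynucleotides. The DMSO levels of RRM2 were 13.7 and 14.8 FPKM in ANBL6, 52.6 and 129 in ANBL6BR, 123 and 112 in ARP1, 28.4 and 28.3 in RPMI8226 and 35.1 and 34.8 in U266. The I3MO libraries, in the same order of models, gave 12.2 and 12.4, then 21.7 and 24.5, then 50.5 and 53.9, then 18.7 and 18.9, and last 3.36 and 4.59. The groups were apart in all 5 models, and the ANBL6BR DMSO replicates differed the most of any pair. RRM2 fell by 2.86 in U266, the largest fall of any member in any model, and its I3MO mean was 11.4% of DMSO (SE 0.28, limma adjusted p = 1.09e-05). It fell by 1.79 in ANBL6BR (0.000891) and 1.15 in ARP1 (0.0062). Without ANBL6BR DMSO replicate 2 the ANBL6BR difference was -1.15 and was called. In RPMI8226 and ANBL6 it was -0.57 (0.224) and -0.19 (0.78).

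TYMS, thymidylate synthase, makes the thymidine nucleotide, and its exons overlap ENOSF1 and TYMSOS, so that its values are uncertain. TYMS stood in DMSO at 14.8 and 17 FPKM in ANBL6, 41.5 and 32.2 in ANBL6BR, 11.7 and 8.72 in ARP1, 6.49 and 8.67 in RPMI8226 and 9.88 and 10 in U266. Under I3MO the values were 19.2 and 20.5 in ANBL6, 16.6 and 18.4 in ANBL6BR, 5.41 and 7.1 in ARP1, 7.04 and 6.34 in RPMI8226 and 4.88 and 4.35 in U266. I3MO values lay above DMSO in ANBL6, overlapped it in RPMI8226 and lay below it in the other 3 models. TYMS fell by 1.03 in ANBL6BR, 0.96 in U266 and 0.63 in ARP1 (SE 0.17, limma adjusted p = 0.00123, 0.000956 and 0.0108). The ARP1 call was lost without DMSO replicate 1 (-0.43) or I3MO replicate 1 (-0.46).

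Of the 5 genes of the fork checkpoint and of histone and methylation mark copying, 5 fell in U266 (median -1.11) and in ANBL6BR (-0.97), 4 in ARP1 (-0.56), 2 in RPMI8226 (-0.13) and 2 in ANBL6 (-0.25). The background of falls over all genes was 15.8%, 8.4%, 13.9%, 8.62% and 3.87% in this order of models. UHRF1 recognises hemimethylated DNA behind the fork and brings in DNMT1, the maintenance methyltransferase. For UHRF1 the DMSO libraries gave 2.06 and 2.51 FPKM in ANBL6, 3.58 and 3.6 in ANBL6BR, 6.44 and 6.19 in ARP1, 5.78 and 5.03 in RPMI8226 and 7.29 and 7.46 in U266. I3MO libraries of the same models, in that order, held 1.37 and 1.26, then 0.719 and 1.04, then 2.43 and 2.29, then 3.72 and 4.34, and last 0.94 and 1.2. No I3MO library overlapped the DMSO libraries of its model. UHRF1 fell by 2.02 in U266, 1.29 in ANBL6BR, 1.12 in ARP1, 0.5 in ANBL6 and 0.35 in RPMI8226 (SE 0.1, limma adjusted p = 6.79e-08, 1.15e-05, 1.17e-05, 0.0121 and 0.0396).

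In DMSO, DNMT1 was at 12.1 and 13.6 FPKM in ANBL6, 15.3 and 14.6 in ANBL6BR, 10.4 and 9.07 in ARP1, 12.1 and 12.3 in RPMI8226 and 15.9 and 17.8 in U266. With I3MO it was at 9.81 and 8.84 in ANBL6, 10.8 and 11.6 in ANBL6BR, 6.37 and 6.13 in ARP1, 9.01 and 9.74 in RPMI8226 and 8.82 and 10 in U266. The groups were apart in all 5 models and the differences ran from -0.35 to -0.77. DNMT1 fell by 0.77 in U266, 0.56 in ARP1, 0.42 in ANBL6, 0.39 in ANBL6BR and 0.35 in RPMI8226 (SE 0.09, limma adjusted p = 6.23e-05, 0.000581, 0.0174, 0.0118 and 0.0234). Calls of both genes in RPMI8226 were lost without any 1 of its libraries (-0.26 to -0.44 for UHRF1 and -0.3 to -0.4 for DNMT1). In ANBL6 they were lost without DMSO replicate 2 (-0.41 and -0.34) or I3MO replicate 2 (-0.47 and -0.35), and the ANBL6BR call of DNMT1 without I3MO replicate 1 (-0.34).

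CHAF1A is the large subunit of the chromatin assembly factor, which places histones on new DNA. The DMSO levels of CHAF1A were 29.6 and 31.4 FPKM in ANBL6, 42.1 and 40.9 in ANBL6BR, 18.1 and 16.6 in ARP1, 25 and 23.2 in RPMI8226 and 26.1 and 27.3 in U266. The I3MO libraries, in the same order of models, gave 24.3 and 26.9, then 16.7 and 19.5, then 9.56 and 10.8, then 21.3 and 22.7, and last 7.6 and 7.14. The groups did not overlap in any model. CHAF1A fell by 1.73 in U266, 1.16 in ANBL6BR and 0.71 in ARP1 (SE 0.09, limma adjusted p = 7.75e-08, 1.02e-05 and 0.000103), with differences of -0.25 in ANBL6 (0.122) and -0.13 in RPMI8226 (0.451). CHAF1B, its partner, fell by 1.11, 0.79 and 0.46 in U266, ANBL6BR and ARP1, the last not without ARP1 DMSO replicate 1 (-0.32). CLSPN, the adaptor that carries the checkpoint signal at stalled forks, fell by 1.05 in U266 and 0.97 in ANBL6BR and differed by 0.18 in ARP1 (limma adjusted p = 0.487).

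**Figure D4:**
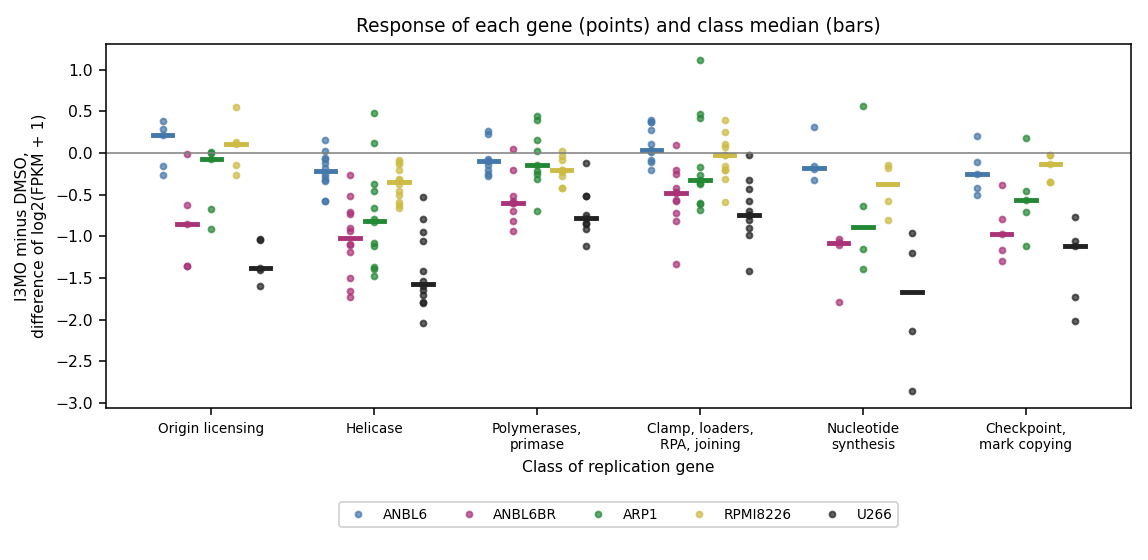
I3MO minus DMSO of each gene (points) as a difference of log2(FPKM + 1), by class and model, with the class median as a bar. The U266 bars are the lowest in each class, from -0.74 to -1.66, and the ANBL6 bars lie between -0.25 and 0.22.

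Beside the 27 falls, 5 members rose in ARP1, a smaller share than the 23.1% of all genes that rose there. They were RFC1, RFC3 and RFC4 of the clamp loader, POLA1 and RRM1. POLA1 is the catalytic subunit of polymerase alpha and RRM1 the large subunit of ribonucleotide reductase. RFC1 stood in DMSO at 7.67 and 7.2 FPKM in ANBL6, 5.24 and 5.28 in ANBL6BR, 1.1 and 1.97 in ARP1, 1.2 and 1.1 in RPMI8226 and 1.73 and 1.66 in U266. Under I3MO the values were 8.11 and 7.04 in ANBL6, 5.42 and 5.93 in ANBL6BR, 5.25 and 3.65 in ARP1, 1.11 and 1.12 in RPMI8226 and 2.25 and 1.14 in U266. The ARP1 groups were apart, and the 4 other models had differences between -0.03 and 0.09. RFC1 rose by 1.11 in ARP1 (SE 0.19, limma adjusted p = 0.000776), and this call was kept whichever library was left out.

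For RRM1 the DMSO libraries gave 7.85 and 8.14 FPKM in ANBL6, 19.2 and 28.1 in ANBL6BR, 5.01 and 8.27 in ARP1, 3.51 and 3.22 in RPMI8226 and 5.4 and 5.67 in U266. I3MO libraries of the same models, in that order, held 7.21 and 6.89, then 10.3 and 10.4, then 10.6 and 9.44, then 2.87 and 2.85, and last 1.79 and 1.89. In ARP1 the I3MO libraries were above both DMSO libraries, of which replicate 1 was the lower, and in the other models they were below. RRM1 rose by 0.56 in ARP1 (SE 0.18, limma adjusted p = 0.0247) and fell by 1.1 in ANBL6BR (0.00114) and 1.2 in U266 (0.000293). In ARP1 its partner RRM2 fell. Without ARP1 DMSO replicate 1 the RRM1 difference was 0.25 and not called, without replicate 2 it was 0.88, and without I3MO replicate 1 it was 0.48 and not called.

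In DMSO, POLA1 was at 2.58 and 2.99 FPKM in ANBL6, 1.88 and 1.95 in ANBL6BR, 1.34 and 2.56 in ARP1, 1.24 and 0.954 in RPMI8226 and 1 and 1.18 in U266. With I3MO it was at 2.34 and 2.2 in ANBL6, 1.51 and 1.56 in ANBL6BR, 3.13 and 2.71 in ARP1, 0.747 and 0.826 in RPMI8226 and 0.624 and 0.325 in U266. The same DMSO library was low in ARP1. POLA1 rose by 0.44 in ARP1 (SE 0.16, limma adjusted p = 0.048), but the difference was 0.14 and not called without DMSO replicate 1, 0.74 without DMSO replicate 2, and it was also lost without I3MO replicate 1 (0.36) or 2 (0.52). In U266 POLA1 fell by 0.51 (limma adjusted p = 0.0327), a call lost without DMSO replicate 1 (-0.57), DMSO replicate 2 (-0.45) or I3MO replicate 2 (-0.36). The DMSO levels of RFC3 were 22.5 and 23.7 FPKM in ANBL6, 16.4 and 21 in ANBL6BR, 11.9 and 15.5 in ARP1, 6.81 and 7.2 in RPMI8226 and 4.93 and 5.07 in U266. The I3MO libraries, in the same order of models, gave 20.4 and 22.1, then 9.96 and 11.9, then 20.6 and 17.9, then 4.1 and 4.53, and last 2.17 and 1.9. The I3MO libraries were above DMSO in ARP1 and below it elsewhere. RFC3 rose by 0.47 in ARP1 (SE 0.13, limma adjusted p = 0.015) and fell by 0.72 in ANBL6BR, 0.98 in U266 and 0.59 in RPMI8226 (0.00278, 0.000155 and 0.00993). Its rise did not pass without ARP1 DMSO replicate 1 (0.29) or I3MO replicate 1 (0.37), nor its RPMI8226 fall without DMSO replicate 2 (-0.56) or I3MO replicate 1 (-0.53).

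RFC4 stood in DMSO at 10.5 and 10.6 FPKM in ANBL6, 4.84 and 4.35 in ANBL6BR, 5.08 and 5.67 in ARP1, 5.83 and 5.69 in RPMI8226 and 7.24 and 7.39 in U266. Under I3MO the values were 13.2 and 14.6 in ANBL6, 2.55 and 3.59 in ANBL6BR, 7.38 and 7.71 in ARP1, 5.98 and 5.3 in RPMI8226 and 3.83 and 4.12 in U266. The ARP1 and ANBL6 groups were apart with I3MO on top, and those of ANBL6BR and U266 with I3MO below. RFC4 rose by 0.42 in ARP1 (SE 0.11, limma adjusted p = 0.00805) and fell by 0.74 in U266 and 0.47 in ANBL6BR (0.000258 and 0.00915), and in ANBL6 the difference was 0.37 (0.0571). The ARP1 call was lost without DMSO replicate 1 (0.36) and the ANBL6BR call without I3MO replicate 1 (-0.28). RFC1 was thus the member whose rise in ARP1 was still called without DMSO replicate 1, while RRM1, POLA1, RFC3 and RFC4 did not pass without it. That library was also the lower one for RFC1 (1.1 against 1.97 FPKM), and by less for RFC4 (5.08 against 5.67).

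Set against the spread between models, in a limma fit on the model means with 5 models a treatment and the model as a block, 0 of 46 members were called and 0% of all genes. By the unadjusted p 27 members were under 0.05, all of them lower, and 44 had a difference below 0. The matching shares of all genes were not counted, so these counts have no background beside them. The median difference over all genes was 0.01. The adjusted p of the members ran from 0.0977 (MCM2, difference -1.13, SE 0.19) to 0.993 (POLD2, 0). ANBL6BR derives from ANBL6 and the doses differ, so that these 5 means are not fully independent. With the filter raised to 5 FPKM in at least 2 libraries, which tests fewer genes, 4 members were called lower: MCM2, MCM5, MCM7 and TK1.

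Levels in DMSO differed between models for 45 of the 46 genes by limma's joint F test, as for 90% of all genes, and PCNA was the member not called. The model with the highest DMSO mean exceeded that with the lowest by a median of 2.56 times over the members, from 1.4 to 10.1 times. CLSPN had the widest range, with means of 5.24 FPKM in ANBL6BR and 0.519 in RPMI8226. RRM2 followed, with 117 in ARP1 and 14.3 in ANBL6. ANBL6BR had the highest mean for 15 members and ANBL6 the lowest for 12, the most of any model on either side. These ranks use the deposited scaling and were not counted over all genes. Median-ratio factors, by which libraries would be divided, were 1.12 and 1.07 in ANBL6BR DMSO and 0.912 and 0.899 in RPMI8226 DMSO.

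Between the resistant form and its parent in DMSO 28 members were called, 19 higher and 9 lower in ANBL6BR, against 51.8% of all genes called, 27% higher and 24.8% lower. The share of members called was thus not far from that of all genes, and the share called lower was below it. The median was 0.23, and 0.14 with median-ratio scaling of the libraries. RRM2 was higher by 2.45 in ANBL6BR, at 52.6 and 129 FPKM against 13.7 and 14.8 (SE 0.28, limma adjusted p = 8.15e-06). RRM1, the partner subunit, was higher by 1.43, RPA2 by 1.2, TYMS by 1.16, POLE by 1.08 and GINS2 by 1.01 (1.77e-05, 1.76e-06, 6.75e-05, 3.74e-07 and 3.94e-06). TK1 was lower by the most, at 25.7 and 15.9 FPKM against 73.4 and 78.3, a difference of -1.86 (2.88e-06). RFC4 and MCM2 differed by -1.05 and -0.94 (3.22e-06 and 3.33e-07). Thus 2 thymidine nucleotide enzymes lay on opposite sides, TYMS higher and the salvage kinase TK1 lower. The TYMS values are uncertain, since 46.6% of its exon bases are shared with other genes. MCM subunits were split as well, with MCM7 and MCM4 higher by 0.96 and 0.65 and MCM3 and MCM5 lower at -0.65 and -0.38.

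At the same labelled dose of 5 µM the response of ANBL6BR lay below that of ANBL6 for 27 members and above it for 0 by the interaction test, against 8.47% of all genes called, 4.33% below and 4.14% above, with a median difference of responses of -0.75. This comparison shares its DMSO libraries with the comparison of the forms in DMSO. CDT1 had the smallest p, with a difference of responses of -1.74 (SE 0.1, limma adjusted p = 3.51e-06), and MCM5 followed at -1.15 (8.08e-05). For MCM7, PCNA and GMNN it was -1.18, -1.61 and -1.14 (0.000433, 0.00171 and 0.00111). RRM2 had -1.6 (0.0276), with -0.96 without ANBL6BR DMSO replicate 2, and its call was lost without any 1 of the ANBL6 libraries or either ANBL6BR I3MO library. DNMT1 had 0.03, POLA1 0.01 and GINS4 -0.01, with adjusted p of 0.95 or above. Without ANBL6 DMSO replicate 1 18 of these calls were left.

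**Figure D5:**
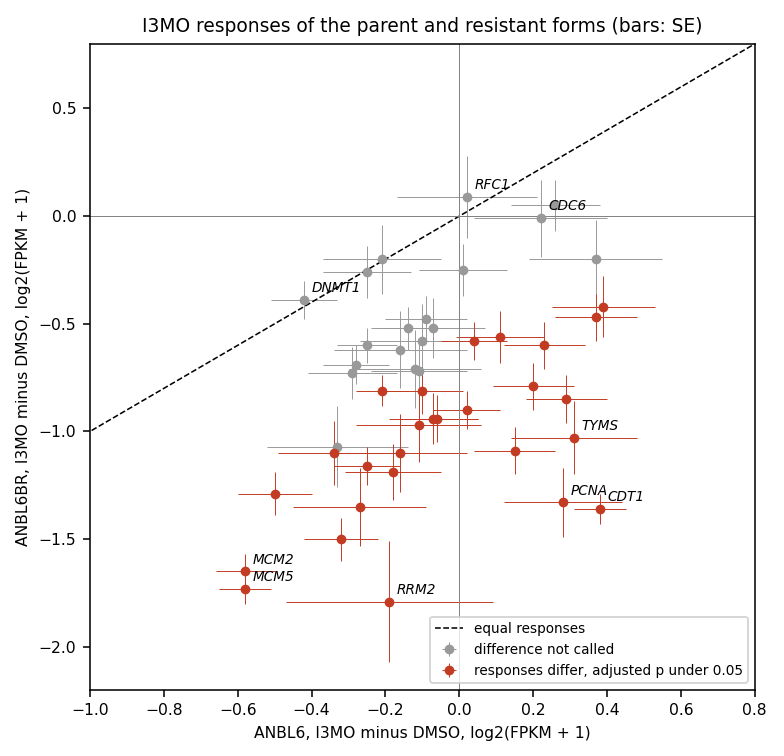
I3MO response of each member in ANBL6 (horizontal) and ANBL6BR (vertical), as differences of log2(FPKM + 1) with SE bars; red marks the 27 members whose responses differed by limma adjusted p under 0.05, and the dashed line marks equal responses. CDT1 lies at 0.38 and -1.36, and DNMT1 close to the line at -0.42 and -0.39.

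Responses were unequal over the 5 models for 43 members in limma's joint F test, against 44.5% of all genes. Among the models given 10 µM, the response of U266 lay below that of RPMI8226 for 34 members and above it for 0, against 13.6% of all genes called, 7.55% below and 6.04% above, with a median of -0.86. GINS2 differed by -1.91 (SE 0.15, limma adjusted p = 8.25e-06) and CHAF1A by -1.6 (9.25e-06). ARP1 against U266 gave 31 members higher and 0 lower, where 30.6% of all genes were called, 21% higher and 9.7% lower, and a median of 0.73. MCM10 differed by 1.66 (SE 0.21, limma adjusted p = 0.000188) and CHAF1A by 1.01 (0.000175), while MCM2 differed by 0.03 (0.885) and RFC2 by 0.08 (0.701).

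ARP1 against RPMI8226 gave 12 members lower and 6 higher, against 27% of all genes called, 8.91% lower and 18.1% higher, with a median of -0.33. MCM5 and MCM2 differed by -0.81 and -0.78 (SE 0.1 and 0.11, limma adjusted p = 0.000344 and 0.000505), MCM7 by -0.88 and GINS2 by -1 (0.00108 and 0.000856). The 6 higher were MCM6, RFC1, RFC3, RFC4, POLA1 and RRM1, by 0.45 to 1.14. RFC3 kept its call whichever library was left out, while the calls of the other 5 were lost without ARP1 I3MO replicate 1 (0.48 to 0.92). Without that library 10 calls were left in all, and without ARP1 DMSO replicate 1 the differences of MCM6, POLA1 and RRM1 were 0.56, 0.36 and 0.43. These 3 comparisons share libraries with each other and with the comparisons of I3MO with DMSO, so they are not independent of them. The median over all genes was 0.09 for ARP1 minus RPMI8226 and 0.11 for ARP1 minus U266.

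The other genes of these pathways are given by their counts. Of all genes tested, 15.8% fell in U266, 8.4% in ANBL6BR, 13.9% in ARP1, 8.62% in RPMI8226 and 3.87% in ANBL6. The shares that rose were 10.5%, 10%, 23.1%, 6.19% and 4.1%, in that order of models. Of 14 further licensing and firing genes tested 8 fell in U266, 3 in ANBL6BR and 1 in ARP1, where 7 rose, 1 rose in RPMI8226 and 0 passed in ANBL6. TICRR, which brings CDC45 to origins, fell by 0.75 in U266 and 0.39 in ARP1, and MCMBP, a binding partner of the MCM ring, by 0.71 in ANBL6BR and 0.48 in U266. Of 21 further fork genes 14 fell in U266, 10 in ANBL6BR, 9 in ARP1, and 1 each in RPMI8226 and ANBL6, while 5 rose in ARP1 and 1 in ANBL6BR. TIMELESS, a fork protection gene, fell by 0.6 in ANBL6BR, 0.54 in ANBL6, 0.5 in U266 and 0.4 in ARP1. NASP, a histone chaperone, fell by 0.63, 0.57, 0.57 and 0.45 in ANBL6BR, ARP1, RPMI8226 and U266. Of 24 further genes of nucleotide supply 10 fell in U266, 6 in ARP1, 5 in ANBL6BR, 3 in RPMI8226 and 0 in ANBL6, and 1, 5, 1, 2 and 2 rose. In ARP1 the rises of 5 of 21 fork genes and 5 of 24 nucleotide-supply genes were near the share of all genes. The 1 fork gene that fell in each of RPMI8226 and ANBL6 was also near or below it. CTPS1, a CTP synthase, fell by 1.14 in U266, 0.88 in ANBL6BR and 0.68 in ARP1, and DCK, a salvage kinase, by 0.6 in U266, 0.57 in ANBL6BR and 0.31 in RPMI8226.

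Genes of other cell-cycle processes are given for scale. Over all genes 15.8% fell in U266, 8.62% in RPMI8226, 8.4% in ANBL6BR, 13.9% in ARP1 and 3.87% in ANBL6. In ARP1 23.1% of all genes rose, and in ANBL6BR 10%. Of 25 mitotic genes 21 fell in U266, 9 in RPMI8226, 6 in ANBL6BR, 6 in ARP1 and 2 in ANBL6, and 9 rose in ARP1. Their medians were -0.83, -0.45, -0.26, 0.27 and -0.21, beside -1.01, -0.2, -0.76, -0.37 and -0.11 for the replication genes. KIF20A, a mitotic kinesin, fell by 1.18 in RPMI8226, 0.91 in U266, 0.82 in ARP1 and 0.6 in ANBL6 and differed by -0.22 in ANBL6BR. PLK1, a mitotic kinase, fell by 1.06 in U266, 0.72 in ARP1, 0.56 in RPMI8226 and 0.48 in ANBL6 and differed by -0.35 in ANBL6BR. Of 13 E2F and RB genes 9 fell in ANBL6BR, 6 in U266, 4 in ARP1, 2 in RPMI8226 and 2 in ANBL6, while 4 rose in ARP1 (median 0.14) and 1 in ANBL6BR. E2F1, an activator of S-phase genes, fell by 1.66 in U266, 1.35 in ANBL6BR and 0.9 in ARP1, and TFDP2, a dimer partner of E2F, by 1.03 in ANBL6BR and 0.74 in RPMI8226. Of 20 homologous recombination and crosslink repair genes 12 fell in U266, 5 in ANBL6BR, 2 in ARP1, 1 in RPMI8226 and 0 in ANBL6, while 10 rose in ARP1 and 1 in ANBL6BR. FANCA, a crosslink repair gene, fell by 0.65 in U266, 0.26 in ARP1 and 0.39 in ANBL6BR. Whether these lists differed from the replication genes was not tested.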

How the data were processed

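RNA sequencing was done on total RNA of the 20 libraries described above, and replicate numbers and groups came from the labels. The authors deposited FPKM for 60483 genes, in a joint table whose columns equalled the 20 single tables. Per the submitters' processing notes the reads were trimmed with Trimmomatic (0.32 and 0.36 are both named), aligned to hg38 with STAR and handled with SAMtools; which tool counted, with which annotation and strand setting, is not given in the sources used here. Whole fragments, and from them the library totals, were recovered from the steps between the deposited FPKM values of 21162 single-exon genes. The length behind FPKM was the sum of the exons of all transcripts for most members, so levels were not compared between genes. For MCM3, MCM4, MCM7, CDC6, RFC1, POLD1, RRM2 and DNMT1 that sum did not give whole fragments. Their lengths were found by a search for one that did. Their fragments, and the fragment shares and chi-square values that include them, rest on that search.

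Genes at 1 FPKM or more in at least 2 libraries (15687) were fitted as log2(FPKM + 1) by limma (version 3.58.1, R version 4.3.3). The fit took group means from all 20 libraries, with an intensity trend and two-sided Benjamini-Hochberg adjustment over all genes tested. Calls needed an adjusted p under 0.05. The procedure was also run on simulated data with independent normal noise, for the ARP1 comparison only. Its outcome is not reported here, and such noise does not reproduce library pairs that stand apart, as in ANBL6BR DMSO. The members, lists and tests were chosen with earlier results of these data known. Library values are printed for the 3 members of each class with the smallest p across models, for members called against the majority in a model and for the 2 smallest p of each other contrast; other lists name the 2 smallest p across models, of which a gene of the repair list is not reported here. Other members named were allowed by that rule with their differences. Of the members that the rule selects, GINS2 has only its U266 mean levels printed, and MCM10 its library values only in U266 and ARP1. Promoter windows came from the RefSeq table for GRCh38.p14 and gene symbols, exons and overlaps from GENCODE 29. Alternatives changed the pseudocount (0.1), the filter (none, or 5 FPKM), the scaling (median ratio), the trend, the groups fitted and the replicate block, and left out each library. Same-numbered replicates did not deviate together over all genes tested (correlations from -0.11 to 0.03). Whether they shared a culture or a batch is not given, and these correlations cannot show it.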

Additional observations from a re-analysis of the deposited data

Results flagged for a closer look

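Unequal responses in the 5 models were called for 43 of the 46 replication genes, against 44.5% of all genes. Each result here is a difference of I3MO responses between models that passed limma's interaction test. At 5 µM, 27 members had a lower response in ANBL6BR than in ANBL6, as did 4.33% of all genes. CDT1, the loading factor, led with -1.74: it was higher with I3MO in both ANBL6 libraries and lower in both ANBL6BR libraries. MCM5, a ring subunit, followed at -1.15, with I3MO at 65.7% of DMSO in ANBL6 and 27.3% in ANBL6BR.

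At 10 µM, 34 members had a lower response in U266 than in RPMI8226 (7.55% of all genes), with GINS2 at -1.91 and CHAF1A at -1.6. For 31 members the response of ARP1 lay above that of U266 (21% of all genes), with CHAF1A at 1.01 and MCM10 at 1.66. The mean of MCM10 with I3MO was at 108% of DMSO in ARP1 and 12.6% in U266. In ARP1 the I3MO libraries (6.91 and 6.62 FPKM) lay between the DMSO libraries (4.75 and 7.83). Between ARP1 and RPMI8226 18 members differed, 12 lower and 6 higher in ARP1. Of all genes 27% were called, 8.91% lower and 18.1% higher, so that the higher share of members was below that of all genes. Whichever library was left out, 9 of the 18 calls were kept. Among these were MCM5 at -0.81 and MCM2 at -0.78, both lower in ARP1. The 10 µM comparisons share libraries, and the 5 µM and 10 µM sets cannot be compared without mixing dose and model.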

How the results depend on the processing

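Counts of members called in the comparison of I3MO with DMSO moved by over 1.5 times as follows. In ANBL6 5 became 2 with a replicate block and 2 with only its own groups fitted, and 2 to 5 with 1 library left out. In ANBL6BR 38 became 0 with only its own groups, where 0 genes of any kind were called, and 31 to 36 with 1 library left out. In ARP1 32 became 21 to 34, the lowest without DMSO replicate 1. In RPMI8226 11 became 7 with no filter, 5 with the replicate block and 3 to 6 with 1 library left out. In the difference of responses 27 became 15 for ANBL6BR minus ANBL6 with the replicate block, and 18 to 31 with 1 library left out. For ARP1 minus RPMI8226 18 became 10 to 24. Across models 0 became 4 with the 5 FPKM filter. The cause was not tested beyond the fewer genes or libraries fitted. Under the other alternatives run, these counts and those of U266 (39 to 41 with 1 library left out) stayed within 1.5 times, and 0 results reversed direction. Of the 267 single calls of members, 257 were kept with the pseudocount 0.1, 238 with no filter, 255 with median-ratio scaling and 267 without the trend. With the replicate block 215 were kept, and whether its numbers pair the libraries is not given. With only the 2 groups compared in the fit, which leaves out the differences of responses, 97 calls were kept and 59 lost. Of the calls 39 of 43 in U266, 30 of 38 in ANBL6BR, 20 of 32 in ARP1, 3 of 11 in RPMI8226 and 2 of 5 in ANBL6 were kept whichever library was left out. Members with few fragments, such as POLE2 with 36 in a U266 I3MO library, are measured least precisely.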
